A study of Mus musculus with 6 samples.

Results

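Tubulins are described here through every spot of a muscle array whose gene symbol begins with TUBA or TUBB. The rule found 4 genes in 8 spots: the alpha tubulins TUBA4A (Entrez Gene 7277) and TUBA8 (51807), and the beta tubulins TUBB (203068) and TUBB4B (10383). They are 4 of the 1521 genes, and 8 of the 5376 spots, on the array. Each had 1 probe printed in 2 neighbouring spots.

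Cells of MyoD(-)cl.A8 were set against C2C12 control cells after 1, 3 and 6 days in differentiation medium with horse serum. C2C12 is a mouse myoblast line, and the clone is 1 G-418 resistant line selected after transfection with a pcDNA 3.0 construct that carries the mouse MyoD transcript in antisense; the labels do not say whether the controls carried an empty vector. Each day had 2 two-colour arrays made for human genes, A with the clone in Cy5 and B with the clone in Cy3, so that 6 arrays were used. The arrays of a day compared the same kinds of RNA and were counted as 1 replicate, which leaves n = 3 days and no replicate within a day.

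The values are scores relative to control in a unit that the sources used here do not define, so no fold changes or expression levels are given. A positive score is taken as higher in the clone; this direction is likely but not stated. Each array was centred on the median of its 2466 features, of which 945 are probes without a gene name. Arrays of a day correlated across features at 0.164 to 0.206, and the duplicate spots of a probe at 0.249 to 0.602 within an array, so single values are imprecise. The probe of the silenced gene, MYOD1, had day means of 0.02, 0.04 and 0.38; its strand is unknown here and the antisense construct holds the same sequence, so it does not check the silencing.

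Microtubules are polymers of heterodimers of 1 alpha and 1 beta tubulin, and vertebrates encode several closely similar isotypes of each. As myoblasts differentiate into myotubes, the sites that nucleate microtubules move from the centrosome to the nuclear envelope. The microtubules align along the growing myotube, and their integrity is needed for the elongated shape. TUBB is a constitutive beta isotype found in most cells. TUBB4B is a broadly expressed beta isotype that also builds the axonemes of cilia. TUBA4A is an alpha isotype whose gene, unlike those of most others, does not encode the final tyrosine of the tail, and TUBA8 is a divergent alpha isotype first described in heart, skeletal muscle and testis. Because coding sequences of tubulins resemble each other closely, a human probe may bind more than 1 mouse tubulin RNA; which RNAs were bound was not tested.

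Promoters are shown for 2 of the genes because MyoD binds the E-box CANNTG and TUBB4B is the tubulin whose score moved most between days. Mouse entries with the same symbol were found in RefSeq (GRCm38.p6) for 3 of the 4 genes, Tuba4a, Tuba8 and Tubb4b, and not for TUBB. Each sequence runs from 250 bases before to 50 bases after the gene's start, 5′ to 3′, and capitals mark the words CANNTG and CCAAT. The first lies at chr2:25224653-25224952 and the second at chr1:75219245-75219544, both on the minus strand.
Tubb4b: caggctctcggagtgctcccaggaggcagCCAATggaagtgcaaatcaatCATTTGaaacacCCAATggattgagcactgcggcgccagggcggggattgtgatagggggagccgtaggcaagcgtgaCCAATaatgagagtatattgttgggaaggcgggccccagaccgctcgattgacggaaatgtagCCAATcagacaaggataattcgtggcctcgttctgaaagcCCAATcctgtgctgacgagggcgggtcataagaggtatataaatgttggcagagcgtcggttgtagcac
Tuba4a: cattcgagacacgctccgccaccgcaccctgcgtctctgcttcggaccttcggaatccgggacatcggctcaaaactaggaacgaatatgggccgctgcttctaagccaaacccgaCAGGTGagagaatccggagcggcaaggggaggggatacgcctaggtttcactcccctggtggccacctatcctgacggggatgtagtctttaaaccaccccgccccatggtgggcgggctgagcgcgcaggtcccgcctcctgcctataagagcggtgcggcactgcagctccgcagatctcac

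The Tubb4b window held 1 E-box, CATTTG, and the Tuba4a window held 1, CAGGTG. The Tuba8 window, not printed, held 2, CACGTG and CAACTG. The pattern CANNTG matches both strands at the same place. At least 1 match was held by 72.3% of 32851 mouse promoter windows of 300 bases, so its presence sets none of these genes apart. The Tubb4b window also held 5 copies of CCAAT, the word bound by the factor NF-Y, none overlapping the E-box. Counting CCAAT on both strands, 37.4% of the windows held at least 1 copy and 0.271% held 5 or more. The Tuba4a and Tuba8 windows held 0. Neither the word CCAAT nor the cutoff of 5 was part of the planned design, and 5 is the count of the Tubb4b window itself. The share of 0.271% is therefore a description and not a test. These matches are letters in a window, and binding was not measured.

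TUBB4B had the widest course of the 4 genes. Its scores were -1.73 and -3.31 on arrays A and B of day 1, -2.41 and 0.88 on those of day 3, and 1.90 and 0.55 on those of day 6. Both day 1 arrays thus lay below 0 and both day 6 arrays above it, with no overlap, while the day 3 arrays lay on either side of 0 and overlapped day 1 and day 6. The day means were -2.52, -0.76 and 1.23 in the order of the days. Only the outer days, 1 and 6, were apart by more than the spread between their arrays; neighbouring days were not.

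**Figure D1:**
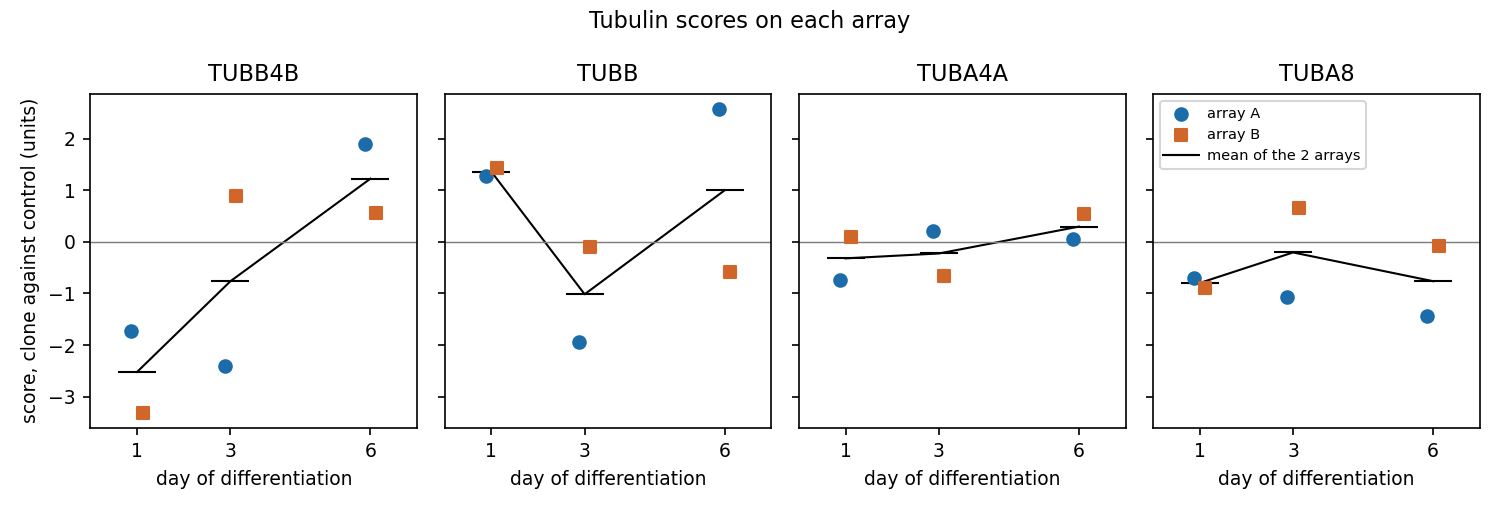
Scores of the clone against control (units of the deposited values, centred per array) for the 4 tubulins by day; circles are array A, squares array B, and the line joins the means of the 2 arrays. TUBB4B runs from a mean of -2.52 on day 1 to 1.23 on day 6, TUBB lies above 0 on both day 1 arrays, and TUBA4A stays near 0.

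From day 1 to day 6 the score of TUBB4B moved up by 3.75, and subtracting each day 1 array from each day 6 array gave 4 differences that ranged from 2.28 to 5.21. It was the 1 tubulin of 4 for which all 4 differences reached 2 units upward, against 0.608% of all features, and it ranked 4th of 1521 genes by the size of the upward move. This movement was known from earlier results when the genes were chosen, so it is a description and was given no test. By the looser mark of both day 6 arrays above both day 1 arrays, TUBB4B was again 1 of 4, beside 20.2% of all features, and 0 of 4 had both day 1 arrays above both day 6 arrays (19.6% of all features).

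On day 1 the mean of TUBB4B was the 6th lowest of the 2466 features, under the 5th percentile of -1.30. It did not count as 2 units from 0 on both arrays, since array A stood at -1.73; 0 of 4 tubulins did on day 1, against 0.811% of features. At 1.5 units on both arrays TUBB4B counted (1 of 4, against 1.87%), and at 1 unit both beta tubulins did (2 of 4, against 7.18%), with opposite signs. On day 3 and day 6, 0 of 4 reached 2 units on both arrays, against 1.26% and 1.82% of features.

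**Figure D2:**
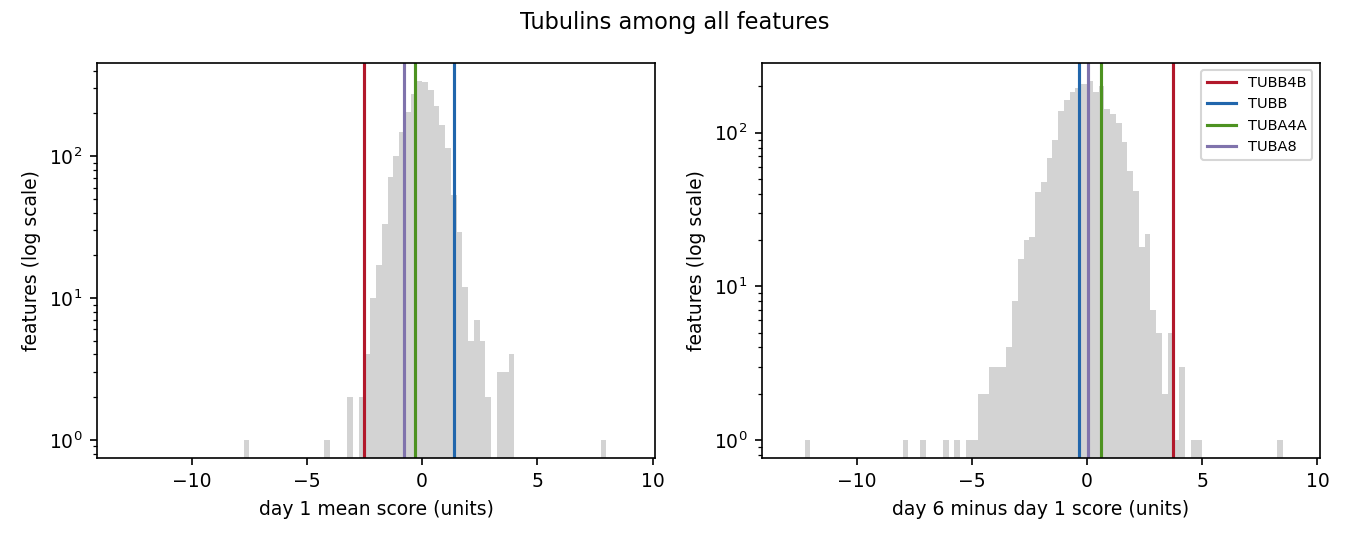
Histograms of all 2466 features (counts on a log axis) by day 1 mean score (left) and by day 6 minus day 1 (right), in score units, with a coloured line for each tubulin. TUBB4B sits in the lower tail on day 1 at -2.52 and in the upper tail of the change at 3.75, while TUBA4A and TUBA8 lie within the bulk in both panels.

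The single spots show how evenly these values were carried. The deposited spot scores of TUBB4B on day 1 were -1.596 and -1.858 on array A and -2.97 and -3.62 on array B, so all 4 readings were below 0 and the gaps were under the median gap of all probes, 1.17 on array A and 1.06 on array B. On day 3 array A its spots read -0.60 and -4.21, a gap that 3.42% of the 2688 probes matched or exceeded on that array. On day 6 they read 3.12 and 0.54 on array A and 1.17 and -0.03 on array B, so the day 6 value was carried more by the odd-numbered spot. With odd-numbered spots alone the change from day 1 to day 6 was 4.35, and with even-numbered spots alone 3.17.

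TUBB, the constitutive isotype, had scores of 1.29 and 1.44 on the day 1 arrays, -1.94 and -0.09 on the day 3 arrays, and 2.58 and -0.58 on the day 6 arrays. The day 1 arrays agreed closely above 0, both day 3 arrays lay under them, and the day 6 arrays disagreed in sign. Its day means were 1.36, -1.02 and 1.00. Both day 1 arrays were above both day 3 arrays for 1 of 4 tubulins, TUBB, against 18.9% of all features.

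The day 6 value of TUBB rested on 1 spot. Its spots on day 6 array A read 5.62 and -0.59, a gap of 6.22 that 1.6% of probes matched or exceeded, while array B read -0.21 and -0.92. With even-numbered spots alone the day 6 mean was -0.30. On day 1, by contrast, all 4 spot readings of TUBB were above 0, at 1.86 and 0.73 on array A and 1.81 and 1.10 on array B.

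**Figure D3:**
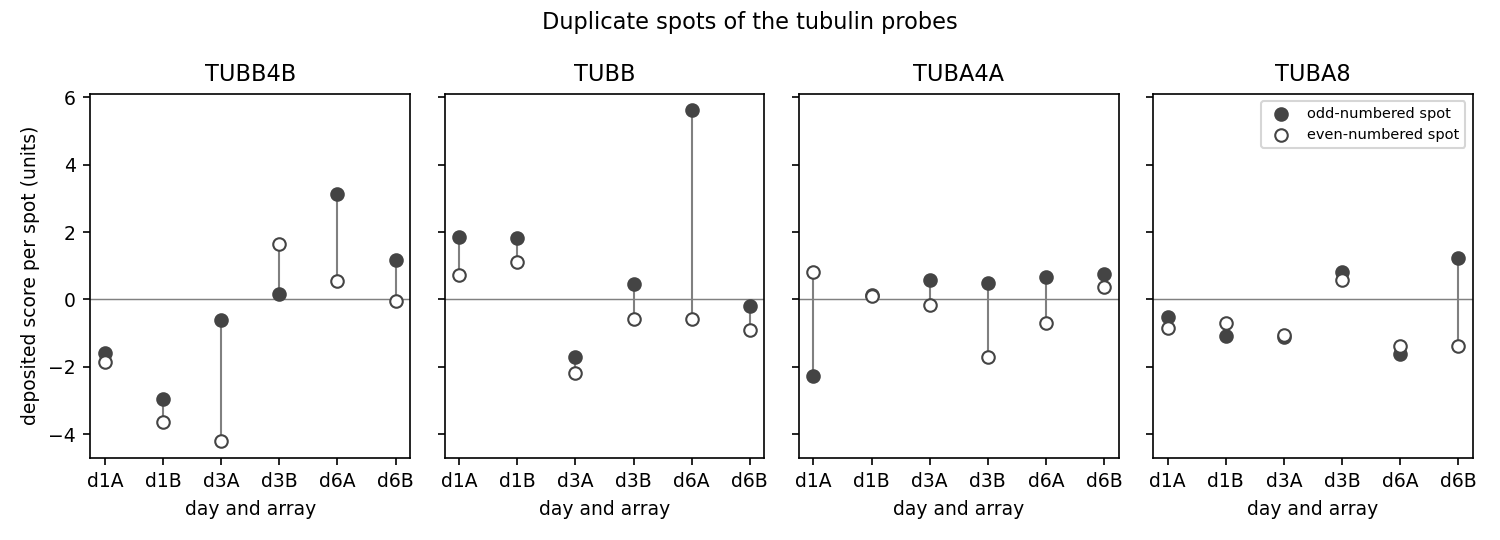
Deposited scores (units) of the 2 spots of each tubulin probe on the 6 arrays (d1A is day 1, array A); filled points are odd-numbered spots, open points even-numbered ones, joined by a line. On day 1 both spots of TUBB4B lie below 0 and both of TUBB above it on each array, and the widest gap among these probes is that of TUBB on day 6 array A, 5.62 against -0.59.

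The 2 beta isotypes stood on opposite sides of 0 on day 1. TUBB exceeded TUBB4B by 3.02 on array A and by 4.75 on array B, with a mean difference of 3.89 units. On day 3 the difference was 0.47 and -0.97 on the arrays, and on day 6 it was 0.68 and -1.13, so that on both later days the arrays disagreed about which was higher. The spots of TUBB and TUBB4B did not overlap on either day 1 array. This difference was picked out after its values were seen and was not tested.

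TUBA4A was the tubulin nearest to 0. It had -0.74 and 0.10 on day 1, 0.21 and -0.66 on day 3, and 0.05 and 0.55 on day 6, with arrays of opposite sign on the first 2 of these days. Its largest departure, on day 1 array A, came from spots at -2.27 and 0.80. The change from day 1 to day 6 was 0.62, between the quartiles of all features, -0.78 and 0.79.

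TUBA8 had -0.69 and -0.90 on day 1, -1.07 and 0.66 on day 3, and -1.44 and -0.09 on day 6. It was below 0 on all but 1 of the 6 arrays, the exception being day 3 array B. Its day means of -0.80, -0.20 and -0.76 all lay above the 5th percentile of all features, which was -1.30, -1.50 and -1.54 on the 3 days. Its spots differed by 0.39 units or less on every array but day 6 array B, where they read 1.24 and -1.38.

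The shared test asked whether a gene stood apart from control in 1 direction through the time course, with limma on the 3 day means and Benjamini-Hochberg adjustment over all features. TUBB4B averaged -0.69 ± 1.88 (SD over 3 days, n = 3), and its adjusted p in limma was 0.934. TUBA8 averaged -0.59 ± 0.33 (adjusted p = 0.899 in limma), TUBB 0.45 ± 1.28 (0.982) and TUBA4A -0.08 ± 0.33 (0.990). None of the 4 passed, against 0.365% of features, and 0 of 4 had an unadjusted p under 0.05, against 6.65%. None had 1 sign on all 6 arrays, against 5.52% of features. The median of the 4 means was -0.34, beside 0.00 over all features.

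These tests do not show that the tubulins were unaltered. The day means of TUBB4B changed sign, so its average over days says little about either end of the course, and leaving out day 1 turned it to 0.23. The mean of TUBA8 stayed below 0 under the alternatives tried other than turning the sign of all arrays. Its day means were all below 0, so leaving out a whole day could not turn its sign, and the alternatives reuse the same arrays. They are therefore no further evidence of a change in TUBA8, whose adjusted p in limma was 0.899.

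A limma fit of the 6 arrays with a coefficient per day measures each day only against the spread between dye-swapped arrays, which was taken as technical. It called 0 of 4 tubulins on day 1, day 3 and day 6, against 0.243%, 0.324% and 0.284% of features. By unadjusted p in limma, the lowest value among the tubulins was that of TUBB4B on day 1 (0.00617, adjusted 0.491). TUBB on day 1 came next (0.0987, adjusted 0.821), then TUBB4B on day 6 (0.142, adjusted 0.614). Each day was adjusted separately, so adjusted values are not ranked across days.

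Genes of the microtubule system were taken from 6 lists of 158 genes, of which 29 were on the array. In the shared test 0 of 29 passed in limma, against 0.365% of features, and 3 (10.3%) had an unadjusted p under 0.05, against 6.65%. Of the means, 14 lay above 0 and 15 below. The median of the 29 means was -0.02, close to that of all features. From day 1 to day 6, 16 scores moved up and 13 down, with a median change of 0.21. The upward move of 2 units on all 4 differences was made by 0 of 29, against 0.608% of all features.

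Among factors that fold and assemble tubulin, 8 of 24 genes were measured. The highest were CCT7, a subunit of the cytosolic chaperonin that folds tubulin and actin, at 0.86, and TBCB, a cofactor that binds alpha tubulin, at 0.44. The lowest were TCP1, another chaperonin subunit, at -0.96 and TBCA, a cofactor that captures beta tubulin, at -0.61. On day 1 TBCE, a further cofactor of alpha tubulin, stood at 2.74 and 1.37. Of the 4 measured chaperonin subunits, 3 lay below 0 by mean on day 1, where the median of all features was 0.02. The 3 were TCP1 at -1.32, CCT3 at -1.42 and CCT2 at -1.20, and CCT7 lay at 0.35. TBCA, VBP1 and TBCB had day 1 means of -0.49, -0.32 and -0.13. The day 1 arrays behind the chaperonin means differed widely. They read -0.30 and -2.35 for TCP1, -0.42 and -2.43 for CCT3, -2.59 and 0.18 for CCT2, and -0.48 and 1.18 for CCT7. None of the 8 was 2 units from 0 on both arrays of a day, against 0.811%, 1.26% and 1.82% of features on days 1, 3 and 6.

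Of 42 microtubule-binding and plus end proteins, 6 were measured. TRIM54, a muscle ubiquitin ligase that binds microtubules and the sarcomere, averaged 1.26 and read 3.28 and 3.48 on the day 3 arrays. It was the 1 gene of the 6 at least 2 units from 0 on both arrays of day 3, against 1.26% of features. On days 1 and 6, 0 of the 6 were, against 0.811% and 1.82%. TRIM55, a relative of TRIM54, averaged 0.71. The lowest were MAP1A, a microtubule-associated protein known best from neurons, at -0.66, and TRIM63, the third member of that ligase family, at -0.02. STMN3, a stathmin-family protein that destabilises microtubules, was the 1 destabilising gene measured of 12 and averaged 0.65.

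Motor proteins were measured through 5 of 25 kinesin genes and 6 of 26 genes of dynein and dynactin. DYNC1I2, an intermediate chain of cytoplasmic dynein that links the motor to dynactin, ran opposite to TUBB4B: it had 4.59 and 2.03 on day 1, 0.26 and 0.99 on day 3, and -1.49 and -2.05 on day 6. It was the 1 motor gene at least 2 units from 0 on both arrays of day 1, against 0.811% of features. On days 3 and 6, 0 motor genes were, against 1.26% and 1.82%. DYNC1I2 was also the 1 motor gene that moved down by 2 units in all 4 comparisons of day 6 with day 1, against 1.22%. ACTR10, a dynactin subunit, averaged 0.90, whereas the dynein light chain DYNLT1 averaged -0.96 and the dynein regulator PAFAH1B1 -0.86. Among kinesins, the heavy chain KIF5C and the motor KIF1C averaged 0.39 and 0.35. The light chain KLC1 and the mitotic kinesin KIF22 averaged -0.76 and -0.51. Of 29 genes of nucleation, the centrosome and tubulin modification, 3 were measured: AGBL5, a deglutamylase, at 0.19, the tubulin glutamylase TTLL4 at -0.20 and the centriolar satellite protein PCM1 at -0.26.

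**Figure D4:**
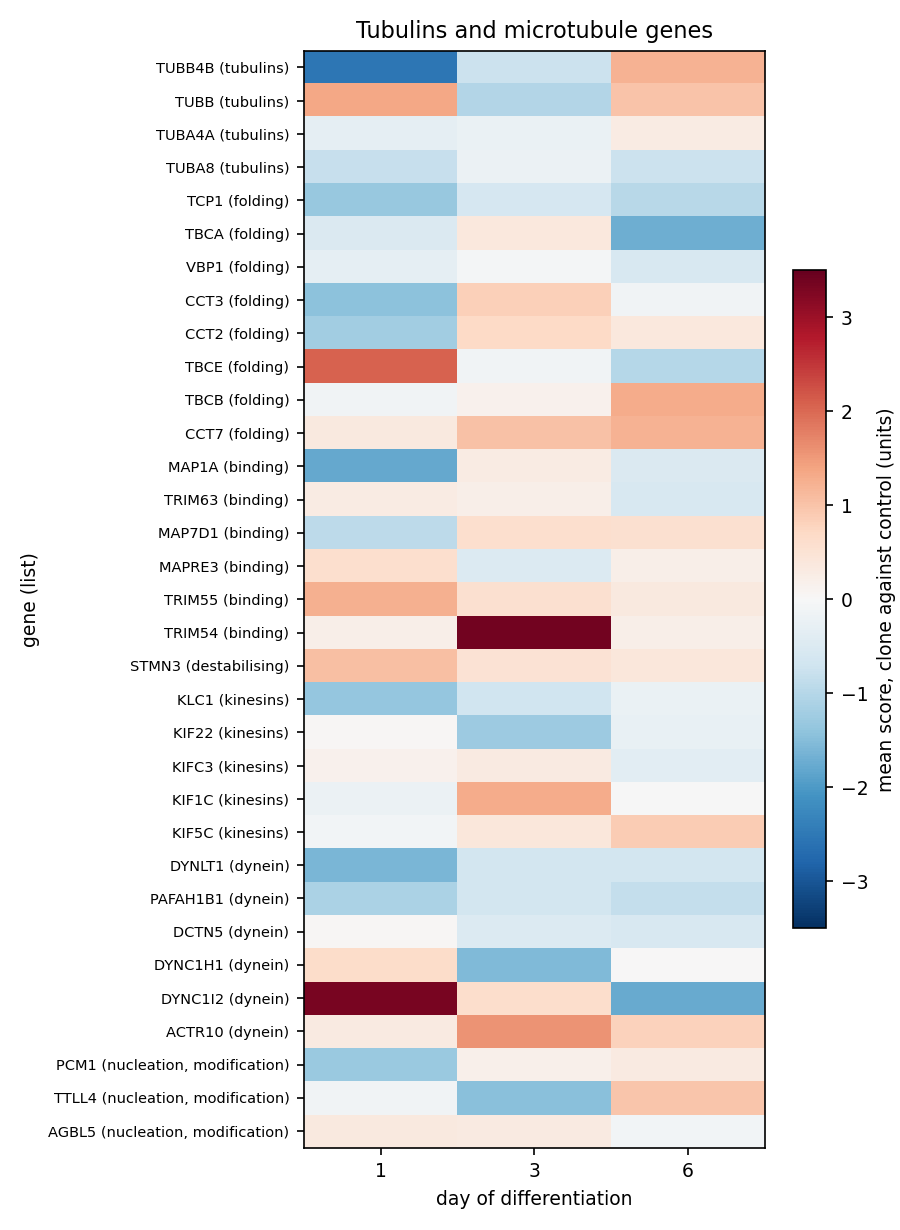
Mean scores of the clone against control (colour, in units) on days 1, 3 and 6 for the 4 tubulins and the 29 measured genes of the microtubule lists. TUBB4B turns from -2.52 to 1.23 over the days, DYNC1I2 runs the other way, and TRIM54 stands out on day 3.

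The genes most like TUBB4B over the 6 arrays were looked for among the 737 genes with at least 0.5 of its range. The 5 highest Pearson correlations were those of PDLIM1 (0.949), a PDZ and LIM protein of actin fibres, LAMA4 (0.944), a laminin chain, STOML2 (0.922), a mitochondrial inner membrane protein, NDUFS8 (0.885), a subunit of complex I, and RBX1 (0.873), a component of cullin ubiquitin ligases. They share the 6 arrays and were picked as the highest of 737, so they are a description only. Of the other tubulins TUBB had the range needed and correlated with TUBB4B at 0.238. TUBA8 (range 2.10 units) and TUBA4A (range 1.28 units) fell short of 0.5 of TUBB4B's 5.21 units and were not candidates; they correlated at 0.273 and -0.01. PDLIM1 itself stood at -1.50 and -2.07 on day 1, -1.65 and 0.22 on day 3, and 0.67 and -0.89 on day 6, so that its day 6 arrays lay on either side of 0.

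Muscle markers were read beside the course of TUBB4B. Of 14, 7 were measured, and 0 passed the shared test, against 0.365% of features. Their summed score lay between -0.56 and 0.28 on the arrays of day 1, between -2.60 and 3.79 on day 3 and between 1.71 and 9.46 on day 6. Skeletal actin, ACTA1, moved up by 3.07 from day 1 to day 6 and the slow troponin TNNT1 by 1.80, while CKM, the muscle creatine kinase, moved by 0.52, DES, desmin, by 0.46, MYOD1 by 0.35, MYF6 by -0.29 and cardiac actin, ACTC1, by -0.21. On day 6 ACTA1 read -0.58 and 3.97 and DES 0.14 and 3.01, so both changes, and the upper end of the summed score, rest on day 6 array B. Without that array, a setting chosen after seeing the data, ACTA1 moved by 0.79, DES by -0.97 and TNNT1 by 1.42. Of the smooth muscle markers 2 of 7 were measured. Their summed scores were -2.51 to -1.65 on day 1, -0.61 on both arrays of day 3 and 0.55 to 1.10 on day 6. CNN1, a calponin, moved up by 2.09 and TAGLN by 0.82. On day 6 the mean of CNN1 was 1.36, whereas that of TAGLN was still below 0 at -0.53. The 1 fibroblast marker measured of 8, POSTN, moved by -1.38, and of the 2 adipocyte markers of 7, FABP4 moved by -1.12 and SCD by -0.08. The part of these markers in the course of TUBB4B was not tested. Because the scores are relative, they cannot show whether a marker is present or absent, and in RNA of whole cultures fewer cells of a type and less RNA per cell cannot be told apart.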

How the data were processed

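RNA was Trizol-purified and labelled with a tyramide kit, per the labels' protocols. Each spot carries a deposited score. The authors' filtering, normalisation and scaling of it are not stated in any label or header. The largest score, 21.6, exceeds what a log2 ratio can reach. Duplicate spots were averaged to 2688 probes (the symbols matched in 1743 of 1743 named pairs), the probes of a gene to 2466 features, and each array was centred on its median. Symbols come from the platform annotation.

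Tests used limma 3.58.1 in R 4.3.3, two-sided, with a threshold of 0.05 after Benjamini-Hochberg adjustment. The fit over the days was also run on simulated data with changes equal on all days. The noise was independent and normal, with SDs that limma had already drawn towards a common value. In these data the fit recovered 89.4% of changes of 2 units and 100% of those of 4 units, with 2.06% of calls false. Such data do not show how the fit performs on scores that change sign between days, as those of TUBB4B did. Nor do they show the recovery for a gene with a spread as wide as TUBB4B's (SD 1.88 over the days). P-values rest on the spread between days of 1 clone and may reflect technical variation. Alternatives concerned scaling, probes, spots, the prior, position and left-out arrays. Figures used Python 3.11.15 and matplotlib 3.10.9.

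The members and gene lists were chosen with earlier results of these data known. The genes named are the tubulins, the 5 genes most like TUBB4B, the 2 highest and 2 lowest of each list, the list members past 2 units on both arrays of a day, and the cell type markers. TBCE, CCT2, CCT3 and VBP1 were named after their values were seen.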

Additional observations from a re-analysis of the deposited data

Results flagged for a closer look

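TUBB4B drew attention because both day 1 arrays lay below 0 and both day 6 arrays above it, a change of 3.75 units. TUBB did because both day 1 arrays lay above 0 and both day 3 arrays below it, a change of -2.38 units. Neither difference was tested over replicates, since the 2 arrays of a day were counted as 1 replicate. Of all 2466 features, 15.6% had opposite signs on all arrays of days 1 and 6, and 14.2% on those of days 1 and 3. For TUBB the day 3 array B stood at -0.09, and with neighbouring probes subtracted it read 0.12 and with odd-numbered spots only 0.03, each of which ends the opposition of signs.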

How the results depend on the processing

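None of the 4 tubulins passed the shared test under any of the alternatives run, among them 6 separate arrays with the replicate block, in which limma's adjusted p for TUBB4B was 0.870 and its mean -0.69. The replicate letter marks the dye, and arrays with the same letter did not deviate together between days (correlations of -0.04 to 0.00); the block moved the count of features that passed to 5, against 10 with 6 separate arrays and no block. The TUBB4B mean lay between -1.64 and 0.23 over 19 alternatives; the turned sign came without all arrays of day 1 (0.23), and it was -0.14 without day 3 replicate A and -1.23 without day 3 replicate B. Turning the sign of every array, since the direction is only likely, gave 0.69 for TUBB4B, 0.59 for TUBA8, -0.45 for TUBB and 0.083 for TUBA4A. The change of TUBB4B from day 1 to day 6 kept its direction, at 2.96 to 4.54 with single arrays left out and 4.23 with neighbouring probes subtracted. Tubulins beyond the threshold on both arrays of a day were 2 at 1 unit and 1 at 1.5 units, all on day 1. The shares of all features on that day were 7.18% and 1.87%. At 2 units the count was 0 on days 1, 3 and 6, against 0.811%, 1.26% and 1.82% of features. Between day 6 and day 1, 1 tubulin moved up by 2 units, against 0.608% of features, and 0 moved by 3 units. The share of features at 3 units was not counted.

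The mean of TUBA4A changed sign with neighbouring probes subtracted (0.14), with even-numbered spots only (0.12) and without day 1 (0.036), and lay between -0.226 and 0.061 with single arrays left out. That of TUBB did with even-numbered spots only (-0.07) and without day 1 (-0.007), and lay between -0.078 and 0.977 with single arrays left out. Single-spot settings were chosen after seeing the data. Features passing the shared test numbered 4 with neighbouring probes subtracted, 16 and 4 with odd- and even-numbered spots only, 0 to 8 with arrays left out, 29 without day 1, and 0 without day 3 or day 6; the causes were not tested. Without spot intensities the signal over background is unknown, and 6 arrays limit the precision.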
